A study of Canis lupus familiaris with 48 samples.

Results

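ENSCAFG00000015756 is a dog gene that had low levels in control and urea-treated kidney cells and lay among the most abundant messages after NaCl or raffinose. It is 1 row of a table of 32704 genes, taken by its Ensembl identifier. It was chosen by its levels in these libraries, namely its high mean after NaCl and raffinose and its low mean in control and urea, so those differences are given as descriptions with no test. Neither the deposited table nor the gene list used here pairs the identifier with a symbol, so it is given no name and no role. On the dog genome build CanFam3.1 it spans chromosome 27 from 42269697 to 42296182 on the minus strand.

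The cells were MDCK I, an established dog kidney epithelial line, grown for 144 h and treated for the last 24 h. NaCl, raffinose and urea cells each had 200 mOsm of that solute added to regular medium (500 mOsm in all), and control cells had regular medium (300 mOsm). Each of the 4 groups held 12 libraries of polyadenylated RNA, 1 at each of 12 passage numbers of the line, from 1 to 19. The replicates are therefore passages of 1 line, p-values measure the spread between them, and the labels do not say whether libraries of 1 passage came from 1 culture. Library totals ran from 3.915 to 16.16 M counted reads (M, megareads), with medians of 11.93 M after NaCl, 10.12 M after raffinose, 10.3 M after urea and 10.24 M in control. Since identifiers had no symbols, markers of kidney epithelium were not checked here.

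Cells of the renal medulla meet high and changing osmolality. NaCl and raffinose stay largely outside the cell and draw water out of it, which is what hypertonicity means, while urea crosses most cell membranes and raises osmolality with little lasting loss of cell volume. Hypertonic kidney cells are known to raise a set of genes for the uptake and synthesis of compatible organic osmolytes and for protein folding, many of them through the transcription factor NFAT5 (TonEBP). Comparing the 3 solutes at equal osmolality asks which messages follow tonicity and which follow urea or osmolality as such.

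The annotated gene has 16 exons with 3765 exonic bases, 14.2% of its span of 26486 bases, and is number 712 of 769 annotated genes on the chromosome in order of start. The last exon, at the 3′ end from 42269697 to 42271541, makes up 1845 of the exonic bases. The other exons run from 72 to 276 bases and the introns from 314 to 5777. The table gives 1 sum over all exons, so which exons the reads came from was not analysed here. The gene is longer than most, against a median of 2293 exonic bases among tested genes, so its levels are given both as CPM (reads of the gene per M counted reads, with totals scaled by TMM factors) and as RPKM (CPM per 1000 exonic bases).

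The solutes divided its levels into a high and a low range with no overlap. After NaCl the gene had from 1262 CPM to 2120.5 CPM with a median of 1533. After raffinose it had from 1560 CPM to 2548 CPM with a median of 1889. These 24 libraries form the high range, and the urea and control libraries the low one. After urea it had from 0.199 CPM to 20.5 CPM with a median of 0.741. In control it had from 1.78 CPM to 14.8 CPM with a median of 3.77. The lowest NaCl library thus lay above the highest urea or control library, while the ranges of NaCl and raffinose overlapped, as did those of urea and control. Means were 1540.1 ± 237 CPM after NaCl, 1937 ± 319 after raffinose, 3.13 ± 5.7 after urea and 5.68 ± 4.1 in control (SD, n = 12 each).

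**Figure D1:**
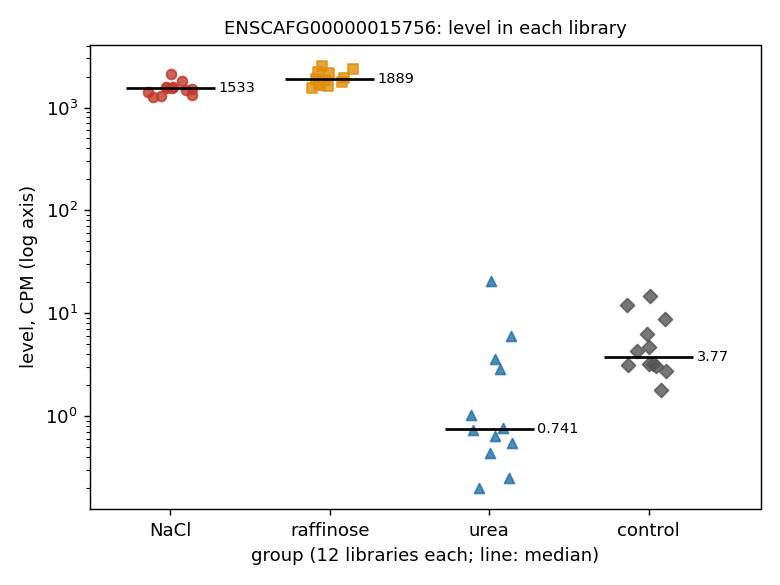
Level of the gene in each of 48 libraries, in CPM on a log axis, by group; each point is 1 library and each line the group median. The NaCl and raffinose libraries sit between 1262 and 2548 CPM, and the urea and control libraries between 0.199 and 20.5 CPM.

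The numbers of reads of the gene behind these values differed as widely as the levels, while the library totals had similar medians in the 4 groups. Between 10131 and 25139 reads stood behind each NaCl value and between 9684 and 32811 behind each raffinose value, so counting error there was small beside the spread between passages. Urea libraries held from 2 to 220 reads with a median of 8, and control libraries from 20 to 213 with a median of 49. The lowest value, 2 reads in urea at passage 7, was 2.05e-05% of that library's reads, with a 95% Wilson interval from 5.62e-06% to 7.48e-05%. Intervals of this kind cover counting error only. All 48 libraries had at least 2 reads of the gene. The gene passed the filter on low counts.

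The gene ranked near the top of all genes after NaCl and raffinose. After urea and in control it ranked near the middle of the 20952 and 21748 genes with any read in that group. Those lists are far longer than the 12654 genes that passed the filter on low counts. A middle rank there is a low level, at medians of 0.741 CPM after urea and 3.77 CPM in control. By mean CPM it ranked 43 of 32704 after NaCl and 40 after raffinose, against 10569 after urea and 9924 in control. In single libraries the rank ran from 34 to 61 after NaCl, from 30 to 57 after raffinose, from 7168 to 13560 after urea and from 8028 to 11404 in control. Per length it stood lower, at 102 after NaCl and 79 after raffinose, against 11882 after urea and 11251 in control. On that scale its means were 409 ± 63 RPKM after NaCl, 514 ± 85 after raffinose, 0.831 ± 1.5 after urea and 1.51 ± 1.1 in control.

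Measured as a share of all counted reads, the gene took 0.148 ± 0.019% after NaCl and 0.179 ± 0.027% after raffinose, or 1 read in 675 and 1 read in 559. In urea it took 0.000325% and in control 0.000615%. Among 94 genes with at least 1000 CPM after NaCl it was the 1 gene with a control mean under 10 CPM, and the same held among 108 genes at or above 1000 CPM after raffinose. The next largest ratio of means to control in those sets was 78.6 after NaCl and 133 after raffinose.

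**Figure D2:**
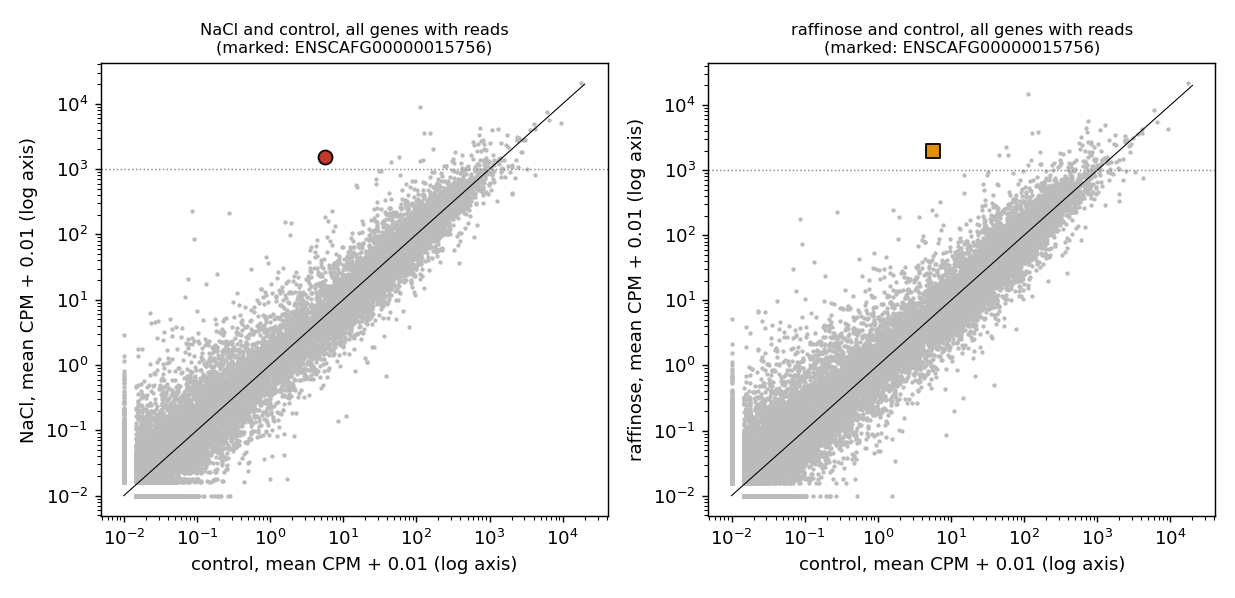
Mean level of every gene with reads after NaCl (left, vertical axis) and after raffinose (right, vertical axis) against its mean in control (horizontal axis), all as CPM plus 0.01 on log axes; grey points are genes, the marked point is ENSCAFG00000015756, the solid line marks equal levels and the dotted line 1000 CPM. The marked gene, at 5.68 CPM in control, is the 1 point above the dotted line with a control mean under 10 CPM.

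Fold changes come from an edgeR fit over all 48 libraries and are log2 values ± SE. Against control the gene's fold change was 8.07 ± 0.42 with NaCl (70.7% of 12654 tested genes were called in that comparison) and 8.40 ± 0.43 with raffinose (74.9% called). Against urea it was 8.90 ± 0.44 with NaCl (72.6% called) and 9.23 ± 0.45 with raffinose (76.0% called). The 4 differences were positive in 12 of 12 same-passage pairs each. They share groups and are not separate evidence. Within a passage, the level after NaCl was from 103-fold (passage 4) to 869-fold (passage 19) that in control, and the level after raffinose from 130-fold to 1326-fold, at the same passages. Against urea it was from 61.6-fold (passage 5) to 6672-fold (passage 7) with NaCl, and from 80.8-fold (passage 5) to 9419-fold (passage 19) with raffinose. Over the same libraries the NaCl values varied 1.68-fold, the urea values 103-fold and the control values 8.32-fold.

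The urea library of passage 5 stood apart. It had 220 reads (20.5 CPM), against 6.02 CPM in the next highest urea library, and it was the 1 urea library above its same-passage control. Its level was 1.24% of the raffinose level and 1.62% of the NaCl level at passage 5. Without it the urea mean was 1.55 ± 1.8 CPM (n = 11), and the fold changes against urea became 9.89 ± 0.37 for NaCl and 10.22 ± 0.37 for raffinose. In control the highest library was passage 4, at 14.8 CPM (0.768% of the raffinose level at that passage), followed by passage 1 at 12.1 CPM. By a rule set after the values were seen, 5 other genes had a mean of at least 50 CPM after NaCl and after raffinose and medians in urea and in control of at most 1% of the raffinose mean. The urea library of passage 5 was the highest of its group for 3 of these genes and first or second for all 5, at 0.634% to 2.04% of the raffinose mean. The control library of passage 4 was highest for 2 of the 5 and first or second for all 5, and that of passage 1 was highest for the other 3. How often these libraries rank first or second over all genes is not given here, so the counts do not show a trait of the libraries. The part of these libraries' other features in the levels was not tested.

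By passage, the levels were as follows. At passage 1 the gene had 2120.5 CPM after NaCl, 2548 after raffinose, 6.02 after urea and 12.1 in control. At passage 4 it had 1520 CPM after NaCl, 1926 after raffinose, 2.89 after urea and 14.8 in control. At passage 5 it had 1262 CPM after NaCl, 1655 after raffinose, 20.5 after urea and 6.33 in control. Passage 1 thus held the highest value of the NaCl and raffinose groups, and passages 4 and 5 the highest of control and urea.

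At passage 7 the gene had 1327 CPM after NaCl, 1620.0 after raffinose, 0.199 after urea and 3.14 in control. At passage 8 it had 1301 CPM after NaCl, 1560 after raffinose, 0.726 after urea and 3.06 in control. At passage 10 it had 1548 CPM after NaCl, 1863 after raffinose, 0.540 after urea and 2.75 in control. In these 3 passages urea lay under 1 CPM and control between 2.75 and 3.14. At passage 11 it had 1484 CPM after NaCl, 1914 after raffinose, 0.441 after urea and 3.24 in control. At passage 13 it had 1573 CPM after NaCl, 2214 after raffinose, 1.02 after urea and 4.31 in control. At passage 14 it had 1579 CPM after NaCl, 1765 after raffinose, 3.59 after urea and 8.86 in control. Urea and control were thus both higher at passage 14 than at passages 7 to 13, while NaCl and raffinose were not at their highest there.

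At passage 16 it had 1406 CPM after NaCl, 1656 after raffinose, 0.756 after urea and 4.66 in control. At passage 17 it had 1817 CPM after NaCl, 2166 after raffinose, 0.639 after urea and 3.20 in control. At passage 19 it had 1545 CPM after NaCl, 2357 after raffinose, 0.2503 after urea and 1.78 in control. Control was at its lowest at passage 19, and urea lower only at passage 7.

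**Figure D3:**
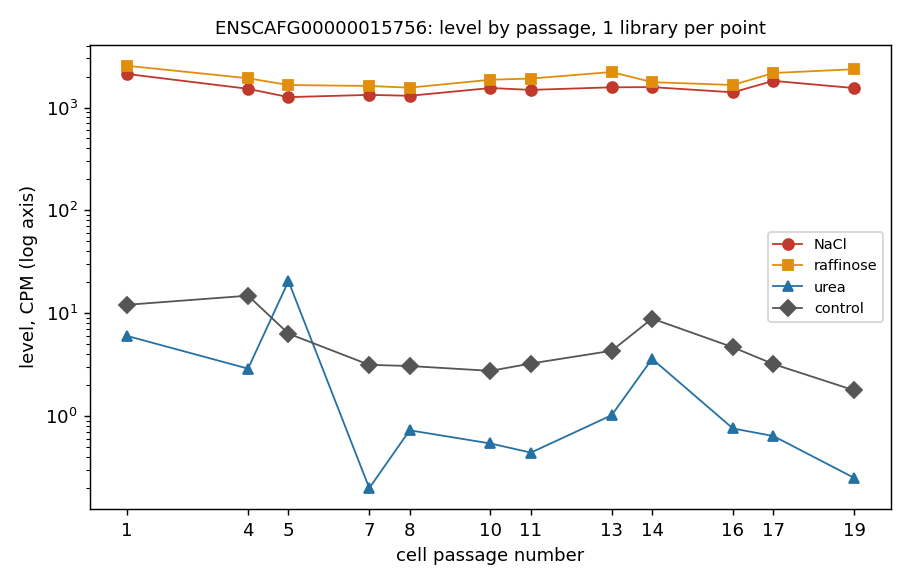
Level of the gene in CPM (log axis) against the cell passage number, with 1 library per point and 1 line per group. The NaCl and raffinose lines stay between 1262 and 2548 CPM, with raffinose above NaCl at every passage, while the urea and control lines share peaks at passage 14 and lie apart from each other most at passage 7.

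Levels after NaCl and after raffinose varied together over the 12 passages. The correlation of log2(CPM + 1) was r = 0.846 (permutation p = 0.0002, adjusted p = 0.0012 over 6 pairs of groups) and rho = 0.776 (p = 0.00468, adjusted p = 0.014). Without passages 1 and 5, the farthest from the NaCl median, r was 0.754 (n = 10). Urea and control also varied together, with r = 0.690 (permutation p = 0.0127, adjusted p = 0.0382) and rho = 0.818 (p = 0.00179, adjusted p = 0.0107). Without passages 1 and 5, the farthest from the urea median, r was 0.914 (n = 10). The fitted slopes with passage number, given below, were negative in both urea and control. The correlation was not computed with those trends removed, so it and the slopes are not separate evidence.

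Between the high and the low range no such relation was detected. The r was 0.324 for NaCl and control (permutation p = 0.306, rho = 0.189), 0.0445 for NaCl and urea (p = 0.889, rho = 0.154) and 0.105 for raffinose and control (p = 0.744, rho = 0.147). For raffinose and urea it was -0.0189 (permutation p = 0.955, rho = 0.0769). With 12 passages these values do not show that the levels were unrelated. Same-passage libraries were alike in general, which bears on the r values: over the 10136 other genes with a mean of at least 5 CPM, the median r was 0.509 for NaCl and raffinose and 0.439 for urea and control. Of those genes, 5.62% had an r at least as high for NaCl and raffinose, and 13.8% for urea and control.

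The level after NaCl was lower than after raffinose in 12 of 12 passages. The ratio of NaCl to raffinose ran from 0.656 at passage 19 to 0.895 at passage 14, with a median of 0.825. An exact sign-flip permutation test of the 12 same-passage log2 differences (mean -0.33, SD 0.12) gave a two-sided p of 0.000488, the smallest that 12 pairs allow. The fit of all 48 libraries gave the same difference, -0.33 ± 0.30, and it did not pass there (edgeR adjusted p = 0.497), in a comparison that called 15.4% of tested genes (7.42% higher and 7.97% lower after NaCl). That fit uses 1 spread for the gene in all groups. The spread that enters the test, the gene's quasi-likelihood dispersion, was 9.79 over all 48 libraries. It was 11.2 with urea and control only and 0.767 with NaCl and raffinose only. The gene's biological coefficient of variation, a separate estimate of spread, was 68.5%, 92.3% and 15.95% in the same order. With the NaCl and raffinose libraries only, the difference was -0.32 ± 0.090 and passed (edgeR adjusted p = 0.0163), in a fit that called 1717 genes. The sign-flip test was run for this gene only, so how often other genes reach its smallest p is not given here. The comparison of NaCl with raffinose did not choose the gene, but both groups entered comparisons that did.

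Urea lay below control in 11 of 12 passages, and passage 5 was the exception. The urea level was from 0.0633 to 3.24 of the control level, with a median of 0.198. The fit of all 48 libraries gave a log2 difference of -0.83 ± 0.41, in a comparison that called 52.3% of all tested genes (27.4% higher and 24.9% lower). With passage as a replicate block it was -0.96 ± 0.38. Without the urea library of passage 5 it was -1.82 ± 0.35, so its size rests in part on this library. The mean of the same-passage differences was -1.16 on the log2(CPM + 1) scale, and -1.41 without passage 5. That scale understates changes at such low levels. Low urea levels were among the values that chose the gene, so this difference is given as a description with no test.

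**Figure D4:**
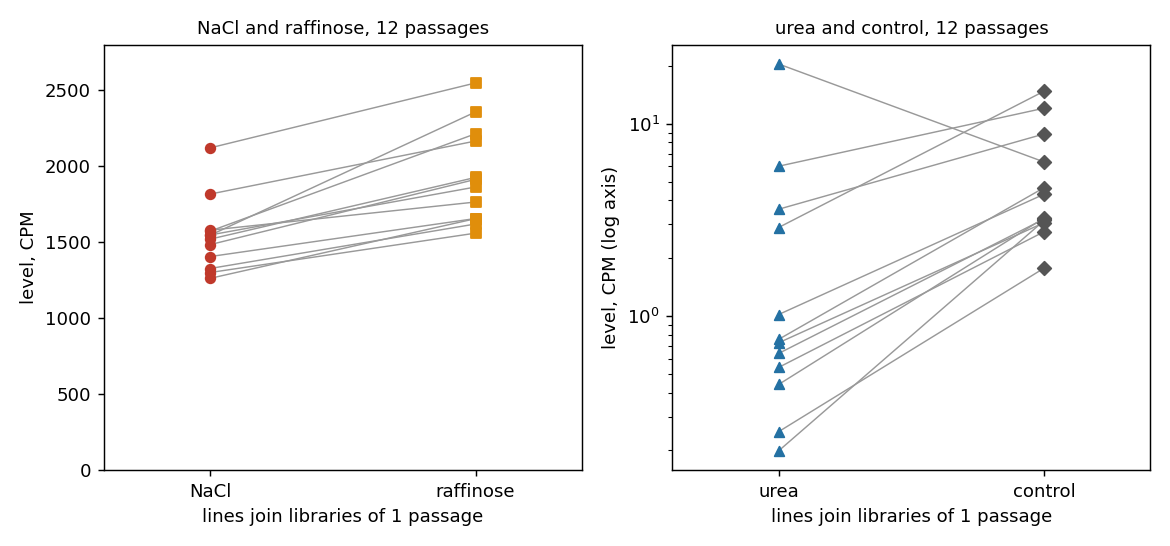
Level of the gene after NaCl and after raffinose in CPM (left, linear axis) and after urea and in control in CPM (right, log axis); each point is 1 library and lines join libraries of the same passage. Raffinose is the higher in 12 of 12 pairs on the left, and urea the lower in 11 of 12 on the right, where passage 5 runs the other way.

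The spread between passages was much narrower in the high range. The coefficient of variation was 15.4% after NaCl and 16.4% after raffinose, against 183% after urea and 72.5% in control. The highest and lowest libraries differed 1.68-fold after NaCl, 1.63-fold after raffinose, 103-fold after urea and 8.32-fold in control. Low read numbers add counting error in urea and control; how much of the spread they make up was not tested. Among genes with a mean of at least 100 CPM, 70.9% of 2387 had a smaller SD of log2 level after NaCl, and 66.0% of 2437 after raffinose.

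A linear trend with passage number passed after urea and in no other group, and that call rests on single libraries. Per 10 passages the slope was -0.03 ± 0.29 log2 units after NaCl (edgeR adjusted p = 0.997) and 0.03 ± 0.29 after raffinose (edgeR adjusted p = 0.982). It was -2.52 ± 0.49 after urea (edgeR adjusted p = 0.014) and -1.13 ± 0.37 in control, which did not pass (edgeR adjusted p = 0.126). In such fits 0.529% of tested genes passed for urea and 0.853% for control, against 0.00790% for NaCl and 0.0316% for raffinose. Without the urea library of passage 5 the urea slope was -1.62 ± 0.41 and no longer passed (edgeR adjusted p = 0.0706), and the control slope, at -1.13 ± 0.28, did (edgeR adjusted p = 0.0456). The urea slope also failed without passage 17 or passage 19. The test that slopes differ between groups did not pass (edgeR p = 0.000155, adjusted p = 0.490). That test called 0 of 12654 genes (0%), with 442 at an unadjusted p under 0.05. A common slope over the 4 groups was -0.54 ± 0.20 and did not pass either (edgeR adjusted p = 0.0561), where 16.2% of tested genes did. The common slope and the test between groups count the 4 libraries of a passage as separate samples. Each group's own slope rests on 1 library per passage, with 1 spread for the gene taken over all 4 groups. With counts summed over the 4 libraries of each passage, the slope was -0.06 ± 0.10 and 8 of all tested genes were called. For this gene those sums held 204395 NaCl and 227142 raffinose reads, against 412 urea and 800 control reads. The summed slope therefore follows NaCl and raffinose and cannot show a trend in urea or control.

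The 10 nearest annotated genes on chromosome 27, 5 on each side in order of start, did not share the pattern apart from a small gene inside an intron. Of the 10, that small gene included, 8 were tested. After NaCl 1 was higher and 4 were lower than control, where 34.6% of all tested genes were higher and 36.1% lower. The 1 higher after NaCl was that small gene. After raffinose 2 were higher, that small gene among them, and 4 lower, against 36.7% and 38.2% of all tested genes. After urea 2 were higher and 2 lower, against 27.4% and 24.9%. The median log2 fold change of the 8 was -0.22 with NaCl, against -0.02 over all tested genes. With raffinose it was -0.32, against -0.02 over all, and with urea -0.05, against 0.02 over all. Between NaCl and raffinose 2 of the 8 were higher after NaCl and 1 lower, against 7.42% and 7.97% of all tested genes.

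The exception is a gene of a single exon of 314 bases, from 42289870 to 42290183 on the minus strand, which lies wholly within the third intron of ENSCAFG00000015756 (42287055 to 42292831). It had 418 reads over the 12 NaCl libraries and 466 over the 12 raffinose libraries, against 2 reads over the urea libraries and 4 over the control libraries. Means were 3.19 ± 1.3 CPM after NaCl, 4.12 ± 1.2 after raffinose, 0.0125 ± 0.043 after urea and 0.0256 ± 0.039 in control. It passed the filter on low counts through the groups where it is high, so its differences are given with no test. Its place in the counts and medians above is description only. Per kilobase of exon its level was 2.48% of that of the surrounding gene after NaCl and 2.55% after raffinose. Reads were counted without strand and intronic reads of a gene are not counted for it, so transcripts of this small gene and unspliced RNA of the surrounding gene cannot be told apart here.

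The genes next to ENSCAFG00000015756 outside its span were low in every group. On the 3′ side, a plus-strand gene from 42148965 to 42259877 ends 9.82 kb away and was not tested. It had means of 0.535 CPM after NaCl, 0.609 after raffinose, 0.806 after urea and 0.0793 in control. On the 5′ side, a minus-strand gene from 42302797 to 42336459 lies 6.61 kb away. Its means were 1.24 CPM after NaCl, 1.17 after raffinose, 2.31 after urea and 1.46 in control. It rose after urea (log2 fold change 0.69 ± 0.21, edgeR adjusted p = 0.00405) and did not pass after NaCl (-0.22 ± 0.22, adjusted p = 0.368) or raffinose (-0.32 ± 0.23, adjusted p = 0.195).

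**Figure D5:**
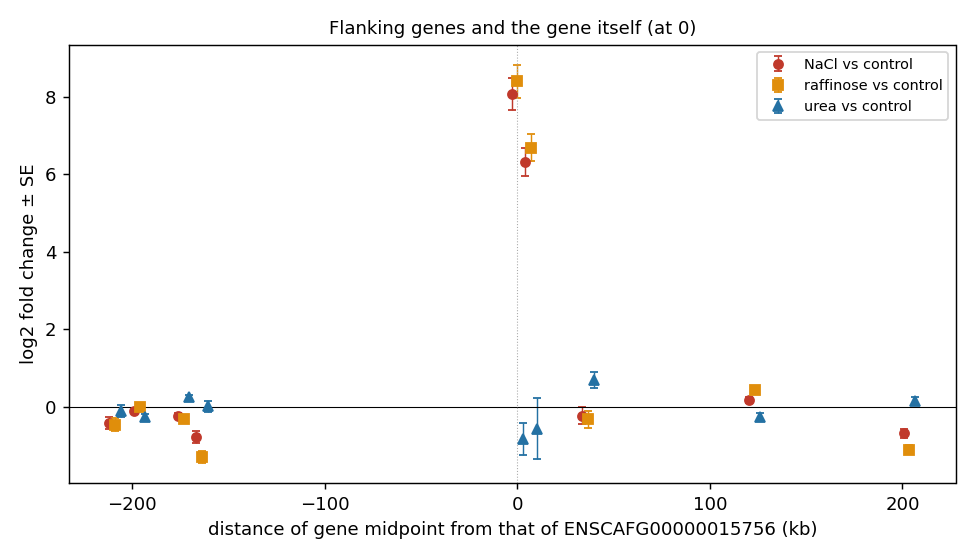
Log2 fold change ± SE against control for the 8 tested flanking genes and for the gene itself (at 0), by the distance in kb of each gene's midpoint; circles are NaCl, squares raffinose and triangles urea, with the NaCl and urea symbols drawn slightly to the left and right. The gene and the small gene in its intron stand above 6 after NaCl and raffinose, while the other 7 lie between -1.29 and 0.69 in all 3 comparisons; the fitted values of the small gene rest on 4 control reads.

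The genes named here for a similar pattern were found by the correlation of log2(CPM + 1) with ENSCAFG00000015756 over the 48 libraries, among 10136 other tested genes with a mean of at least 5 CPM. Most of each r reflects the division into a high and a low range, so 218 genes had an r over 0.95. The order depends on the measure: by Spearman's rho the 2 genes with the highest r ranked 204 (rho = 0.854) and 164 (rho = 0.863). The highest r, 0.988, belonged to ENSCAFG00000006942 (chromosome 15, 40179872 to 40239634, 15 exons). Its level was 209 ± 42 CPM after NaCl and 225 ± 50 CPM after raffinose, against 0.208 ± 0.51 after urea and 0.267 ± 0.41 in control. The second, 0.987, belonged to ENSCAFG00000004174 (chromosome 2, 10735320 to 10804780, 21 exons). Its level was 26.1 ± 3.3 CPM after NaCl and 25.8 ± 2.9 CPM after raffinose, against 1.71 ± 0.69 after urea and 2.24 ± 0.95 in control. These genes share the direction and not the size of the change, since their log2 fold changes against control after NaCl were 9.44 and 3.55.

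The lowest r was that of ENSCAFG00000014260 (chromosome 9, 19180455 to 19191338, 17 exons; r = -0.985, rho = -0.898). Its level was 52.1 ± 2.6 CPM after NaCl and 45.7 ± 3.7 CPM after raffinose, against 155 ± 14 after urea and 140.4 ± 14 in control. ENSCAFG00000003081 (chromosome 15, 3242533 to 3305464, 38 exons; r = -0.977, rho = -0.844) stood at 84.2 ± 9.6 CPM after NaCl and 79.1 ± 5.4 CPM after raffinose, against 211 ± 18 after urea and 188 ± 21 in control. The r values are descriptions over libraries that share solutes and passages.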

How the data were processed

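RNA was sequenced as single reads from 48 libraries of MDCK I cells. The authors deposited raw read counts per gene. The tools listed in the submitters' processing notes are CASAVA, HISAT2 2.0.5 and featureCounts 1.5.1. Counting was unstranded, over exons of Ensembl release 87 (CanFam3.1), per the file headers. No setting for multiply matching reads appears in the command there, so near-identical copies or overlapping genes would be measured with less certainty. The 4 columns of passage 10 carry an added number of unstated meaning. No value column was left unused (0), and 0 rows were summary rows.

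Tests used edgeR 4.0.16 (R 4.3.3) on these counts, with filterByExpr (12654 genes), TMM, glmQLFit of all libraries by group, glmQLFTest and Benjamini-Hochberg adjustment over all tested genes at 0.05. SE is the log2 fold change over the square root of F. Passage slopes used a linear term. No 2 libraries of a group were within sampling noise of each other (lowest chi-square per gene 4.99). Passage numbers pair the libraries, since the labels give 1 passage to 4 libraries; of 72 same-passage pairs, 66 correlated over 0.1 after group means were removed (mean 0.345, against -0.031 for other pairs). Permutation tests of correlations drew 100000 resamples. The genes named are the 2 highest and the 2 lowest by r. The gene, the lists and the tests were chosen with earlier results of these data known. Alternatives included other scalings and filters, DESeq2 1.42.0, limits on samples and a replicate block.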

Additional observations from a re-analysis of the deposited data

How the results depend on the processing

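Of 404 values recomputed, 366 kept their direction and their side of the threshold or moved less than the limit used. For NaCl against raffinose, the difference was negative in every setting run. It passed with only those groups (-0.32), with those groups and passage as a replicate block (-0.32, a setting added after the data were seen), and in the sign-flip test (-0.33); with each passage left out it ran from -0.35 to -0.30. For urea against control, leaving out a passage gave -1.80 (passage 5) to -0.57 (passage 4). It was -0.96 with a replicate block, -1.48 with only those groups and a block, -1.82 without the urea library of passage 5 and -1.85 with a block as well. The mean of same-passage differences was -1.16, and -1.41 without passage 5.

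DESeq2 reversed this difference, to 3.53. By its default for outliers it had replaced the 220 reads of the urea library of passage 5 with 8340, a value drawn from the trimmed mean over all groups. It also put NaCl against urea at 4.57 and raffinose against urea at 4.90. With no replacement DESeq2 gave -0.86 for urea against control.

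The common passage slope ran from -0.60 to -0.46 as passages were left out and passed without passages 7, 8 or 14. With counts summed by passage, where nearly all reads of the gene came from NaCl and raffinose, it was -0.06. Without the urea library of passage 5 it was -0.40. The urea slope ran from -3.15 to -1.62 and the control slope from -1.32 to -0.85 with passages left out. Without that library they were -1.62 and -1.13. With the urea libraries only, the urea slope was -2.52 and did not pass. The correlation of raffinose with urea was 0.000571 with library totals only and 0.00119 with a pseudocount of 0.25. Ranks by RPKM were 102 after NaCl, 79 after raffinose and 11251 in control.

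Counts of all called genes for NaCl against raffinose were 3595 with the replicate block, 4052 with a block and only those groups, 3571 with a block and no urea library of passage 5, and 14 against a minimum fold of 1.5, which left 1165 for urea against control. Passage slopes were called in 8 genes with summed counts and in 1100 to 2745 with passages left out. For these changes of call the cause was not tested. Low read numbers limit the urea and control values, at medians of 8 and 49 reads per library.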

Other observations

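After group means were removed, so that only variation between passages within a group was left, the correlation of ENSCAFG00000015756 with the 10136 other genes had a median of -0.00332 over 48 libraries. It exceeded 0.5 for 54 genes. The gene's SD of log2(CPM + 1) was 1.25 after urea and 0.776 in control, against 0.208 after NaCl and 0.230 after raffinose. These correlations therefore rest mostly on the urea and control libraries, at medians of 8 and 49 reads. The highest, 0.621, was with a gene on chromosome 12 (48646194 to 48844777, 17 exons) that had 16.5 ± 2.8 CPM after NaCl, 27.4 ± 5.9 after raffinose, 2.89 ± 1.6 after urea and 14.9 ± 5.3 in control. The second, 0.604, was with a gene on chromosome 9 (22254803 to 22289459, 20 exons) with 39.99 ± 3.8 CPM after NaCl, 44.5 ± 5.0 after raffinose, 48.5 ± 7.9 after urea and 38.7 ± 6.1 in control. The r of the second over all 48 libraries, with group differences kept in, was -0.0234.

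Scaled by library totals only, the gene's gain over control was 1475 CPM after NaCl and 1781 CPM after raffinose. These were the 14th and the 12th largest gains of any gene. They made up 0.767% and 0.803% of the summed gains of all genes whose mean was higher than in control.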
